A study of Mus musculus with 2 samples.

Results

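The genes described here are 7 members of the fibroblast growth factor (FGF) family, Fgf3, Fgf8, Fgf9, Fgf13, Fgf15, Fgf17 and Fgf18, together with Fgfbp3, which encodes an FGF binding protein. They were chosen by gene symbol, and each of the 8 symbols matched 1 row among the 32285 genes of the count tables. The tables hold 2 single-cell RNA libraries of the corticoseptal boundary, the strip of the mouse forebrain where the medial cortex meets the septum, at E16.5, late in gestation. The WT library came from embryos without the deletion. The Tcf4 cKO library, called cKO below, came from Tcf4f/f;Emx1Cre embryos, in which Cre expressed from Emx1 recombines both floxed alleles of Tcf4, a basic helix-loop-helix transcription factor. Emx1 is active in cortical progenitors and their descendants, so septal and other cells outside that lineage keep the gene. The number and sex of the embryos behind each library, and whether the WT embryos carried Cre or a floxed allele, are not given in the sources used here.

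FGFs are mostly secreted ligands that bind FGF receptors together with heparan sulfate, and receptor signalling induces its own inhibitors, the Sprouty and Spred proteins, and the Etv transcription factors. Fgf8 and Fgf17 come from the rostral patterning centre at the front midline of the telencephalon, which instructs the frontal cortex and the midline from which callosal axons later take guidance. Fgf13 differs from the rest: it is an FGF-homologous factor that stays inside the cell and binds voltage-gated sodium channels. Fgfbp3 is a secreted carrier that releases FGFs from the heparan sulfate of the extracellular matrix.

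The WT library gave 8634 cells and the cKO library 10142. Their median depths were 9660 and 8152 UMIs per cell, a UMI (unique molecular identifier) standing for 1 captured transcript. The libraries shared 23 cell barcodes. Cells of both libraries were clustered together without the 8 genes, and 35 clusters resulted. Clusters were named from marker genes as astroglia (radial glia and astrocytes, 1732 WT and 1697 cKO cells), cycling progenitors (465 and 528), intermediate progenitors (425 and 531), glutamatergic neurons (1398 and 2078), GABAergic neurons (2058 and 2364) and smaller classes. A further 2359 WT and 2759 cKO cells lay in clusters with no clear marker majority, which are called unnamed. Levels are given in CPM, the UMIs of a gene per 1000000 UMIs of the group of cells. Each genotype is a single library without a replicate, so no test was run and no p-value is given. All intervals, written in brackets, are exact 95% intervals for counting error alone, and UMIs of 1 library are not biological replicates.

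Over all cells, Fgf17, Fgf8 and Fgfbp3 were lower in cKO and the other 5 genes lay closer to WT. The Fgf17 level was 25.2 CPM in the WT and 9.11 CPM in the cKO library, a cKO over WT ratio of 0.362 (0.334 to 0.392). Fgf8 stood at 16.2 and 6.71 CPM, a ratio of 0.416 (0.378 to 0.457). Fgfbp3 stood at 174 and 113 CPM, a ratio of 0.648 (0.632 to 0.664). These 3 of 8 genes were lower by more than 1.5-fold on the log2(CPM + 5) scale, and 0 of 8 were higher. Among all 17529 genes with at least 20 UMIs over both libraries, 0.394% were lower and 0.262% higher by that measure, with a median log2 ratio of -0.02.

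Fgf13 was higher in cKO over all cells, at 50.3 and 65.0 CPM, with a ratio of 1.29 (1.24 to 1.34) that did not reach 1.5-fold. Fgf15, at 43.7 and 40.2 CPM, had a ratio of 0.919 (0.879 to 0.961). The intervals of the remaining ratios spanned 1: Fgf3 at 0.912 (0.816 to 1.02), Fgf9 at 0.959 (0.855 to 1.07) and Fgf18 at 0.946 (0.84 to 1.06). All 3 of the lower calls depended on how the clusters were weighted. When the 28 clusters with at least 30 cells in both libraries were weighted equally, the log2 ratios were -0.57 for Fgf17, -0.34 for Fgf8 and -0.36 for Fgfbp3, all short of 1.5-fold.

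**Figure D1:**
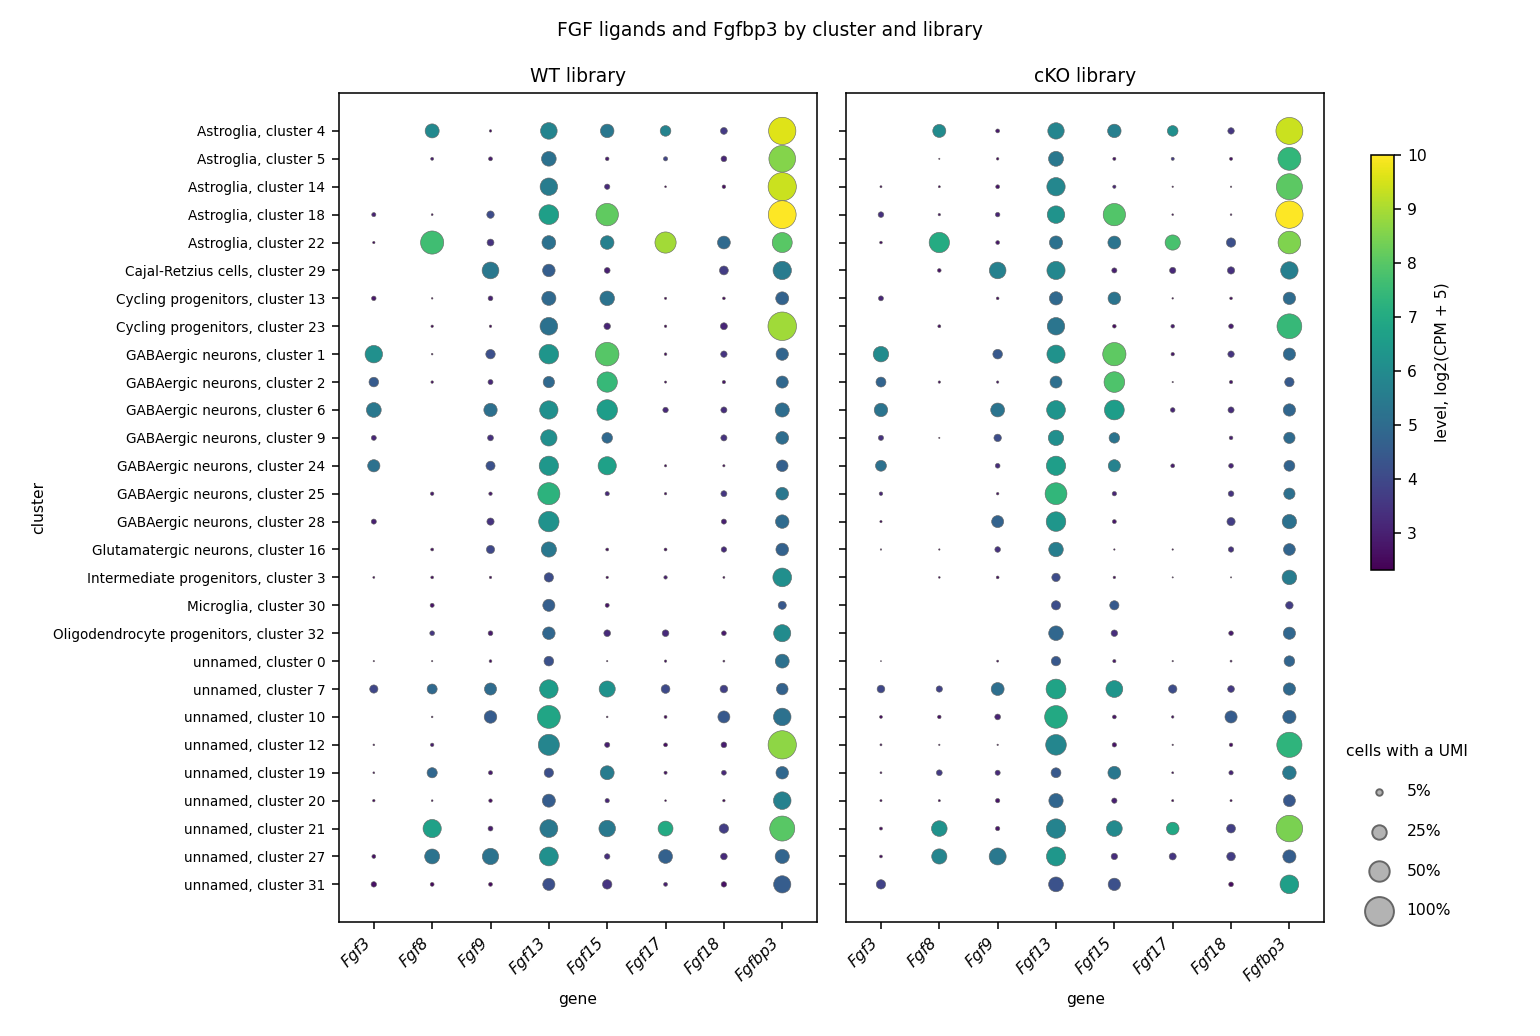
Level and detection of the 8 genes in the 28 clusters with at least 30 cells in both libraries, WT on the left and cKO on the right. Colour gives the level as log2(CPM + 5) and dot area the percent of cells with a UMI. Fgf8 and Fgf17 stand out in clusters 22, 21 and 4, Fgf3 and Fgf15 in clusters 1, 2, 6 and 24, and Fgfbp3 in astroglia and cycling clusters.

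The shares of cells with at least 1 UMI differed in the same direction for these 3 genes. In WT, 4.98% of cells had an Fgf17 UMI, 6.58% an Fgf8 UMI and 40.6% an Fgfbp3 UMI, against 2.11%, 2.65% and 32.4% in cKO. With each cell thinned to 3000 UMIs, which removes the difference in depth, the shares were 2.84%, 3.67% and 23.5% in WT and 1.13%, 1.35% and 16.9% in cKO. Fgf18 was found in 5.55% of WT and 4.6% of cKO cells, but in 1.34% and 1.70% of them after thinning, so no order is read from its share.

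Free RNA from broken cells can place UMIs in cells that do not express a gene. Microglia, immune cells that are not a known source of these ligands, had medians of 10061 UMIs in WT (51 cells) and 8847 UMIs in cKO (59 cells). Fgf3, Fgf9, Fgf17 and Fgf18 had no UMI in microglia of either library, which allows a share of up to 5.88% in WT and 5.08% in cKO when 3 cells are taken as the limit of a count of 0. Fgfbp3 was found in 7.84% and 6.78% of microglia, Fgf13 in 17.6% and 10.2%, Fgf15 in 1.96% and 10.2%, and Fgf8 in 1.96% and 0%. Shares near these values are read as background. Free RNA made up an estimated 2.28% of neuronal UMIs in WT and 1.19% in cKO.

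Fgf8 (chr19:45736798-45742915, minus strand, mm10), Fgf17 (chr14:70636203-70642268, minus strand) and Fgf18 (chr11:33117430-33147400, minus strand) form 1 subfamily of ligands. The most alike 60 bases of coding sequence of Fgf8 and Fgf17, and the Fgf18 window that best matches the Fgf8 bases, are shown because these are the paralogs between which reads could be confused. Capitals mark the bases that all 3 share.
Fgf8, chr19:45737206-45737265: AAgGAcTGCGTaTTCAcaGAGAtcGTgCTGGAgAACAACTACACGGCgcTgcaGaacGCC
Fgf17, chr14:70636949-70637008: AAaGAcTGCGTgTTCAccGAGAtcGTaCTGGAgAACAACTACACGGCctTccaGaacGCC
Fgf18, chr11:33117957-33118016: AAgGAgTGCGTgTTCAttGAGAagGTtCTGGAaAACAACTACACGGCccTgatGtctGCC
Each is written 5′ to 3′ on the minus strand of GRCm38. Fgf8 and Fgf17 were identical at 53 of these 60 bases and all 3 genes at 43. The longest run of identical bases anywhere in the coding sequences of Fgf8 and Fgf17 was 20, of Fgf17 and Fgf18 15, and of Fgf8 and Fgf18 14.

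Fgf8 and Fgf17 were concentrated in a few astroglia and progenitor clusters with high Six3 levels. Cluster 22, named astroglia from its markers and led by Igfbp5, Cnmd and Nkx2-1 beside Fgf17 and Fgf8, held 62.0% of the WT Fgf17 UMIs in 3.45% of the WT cells. It held 25.5% of the cKO Fgf17 UMIs in 1.13% of the cKO cells. Its Six3 level, a gene of the septum and ventral forebrain, was 521 and 479 CPM, whereas that of Emx1 was 8.64 and 7.88 CPM. The other sources were cluster 21, whose markers were split between cycling cells and astroglia, and cluster 4, astroglia led by Ogn, Aldh1l1 and the ciliary regulator Foxj1.

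Within cluster 22 the Fgf17 level was 481 CPM in the 298 WT cells and 213 CPM in the 115 cKO cells. The ratio was 0.442 (0.381 to 0.510), and 54.0% of WT cells against 27.8% of cKO cells had a UMI (44.3% and 20% after thinning). In cluster 21 the Fgf17 levels were 122 and 117 CPM, a ratio of 0.954 (0.817 to 1.11). In cluster 4 they were 48.9 and 64.7 CPM, a ratio of 1.32 (1.10 to 1.59). Fgf17 was thus lower in cKO in the cluster that expressed it most, near WT in the next and higher in the third. Of the 6 clusters with at least 20 Fgf17 UMIs in a library, 2 had an interval below 1. They were cluster 22 and cluster 27, unnamed and led by Gng8 and D930028M14Rik, where 32 and 8 UMIs gave a ratio of 0.309 (0.123 to 0.684).

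Fgf8 showed the same order of levels and a smaller difference in cluster 22. Its levels there were 197 and 125 CPM, a ratio of 0.634 (0.519 to 0.769), with a UMI in 64.4% and 49.6% of cells. Cluster 21 had 98.5 and 71.1 CPM, a ratio of 0.721 (0.597 to 0.869), and cluster 4 had 56.6 and 59.1 CPM, a ratio of 1.04 (0.867 to 1.26). The lower levels of 3 unnamed clusters also differed. In cluster 7, led by Pmaip1, Six3 and Lhx5, Fgf8 stood at 25.1 and 9.23 CPM, a ratio of 0.368 (0.238 to 0.556). In cluster 19, led by Gsx1, a gene of ventral progenitors, it stood at 24 and 7.50 CPM, a ratio of 0.313 (0.152 to 0.596). In cluster 27 it was higher in cKO, at 32.9 and 51.0 CPM, a ratio of 1.55 (1.06 to 2.28). In all, 4 of 6 clusters with at least 20 Fgf8 UMIs had an interval below 1 and 1 had an interval above 1.

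**Figure D2:**
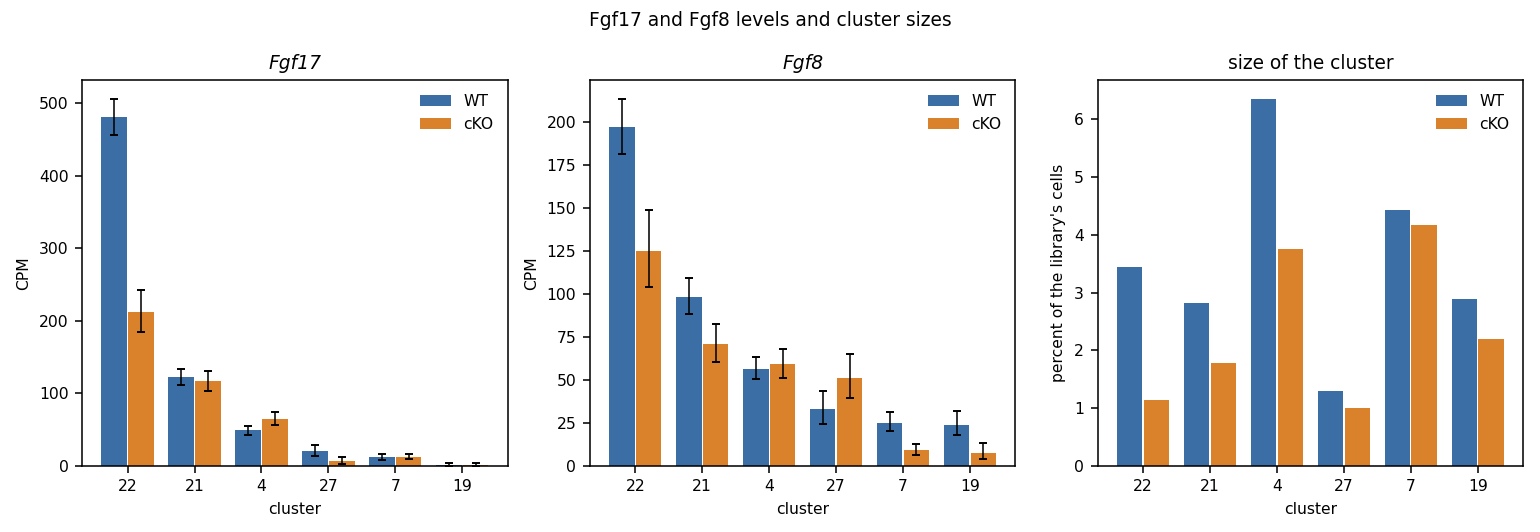
Fgf17 and Fgf8 levels in CPM with exact 95% counting intervals, and the share of each library's cells, in the 6 clusters with the most Fgf8 (22, 21, 4, 27, 7 and 19). Blue is WT and orange cKO. In cluster 22 the Fgf17 bar is 481 CPM in WT and 213 CPM in cKO, and the cluster is 3.45% of WT and 1.13% of cKO cells.

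The lower sums over all cells combined smaller shares of the expressing clusters with lower levels in some of them. Cluster 21 was 2.81% of WT and 1.78% of cKO cells and cluster 4 was 6.36% and 3.76%, and the shares of all clusters are exchanged in what follows. With WT levels in each cluster and the cKO shares of UMIs per cluster, Fgf17 over all cells would be 12 CPM, against 25.2 CPM observed in WT. With WT shares and cKO levels it would be 16.6 CPM, and with both as in cKO it was 9.11 CPM. For Fgf8 the same values were 16.2 CPM in WT, 9.03 CPM with cKO shares, 11.9 CPM with cKO levels and 6.71 CPM in cKO. The share of a cluster in a library also depends on where the boundary was cut, and with 1 library per genotype this and a loss of cells cannot be told apart.

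Several values moved with cluster 22. Its Tcf4 level was 455 and 544 CPM, a ratio of 1.2 (1.08 to 1.32). Red-cell markers summed to 1588 CPM in its WT cells (6 of 6 markers found) and 7205 CPM in its cKO cells (5 of 6). They differed in other clusters too, at 167 and 2897 CPM in cluster 21, 198 and 1535 CPM in cluster 4 and 3409 and 132 CPM in cluster 5. Over 20 clusters they were higher in cKO in 11 and lower in 9. The leading genes were picked from WT and cKO cells together, here 298 and 115 cells. Genes higher in WT could therefore be picked more readily, and lower cKO ratios partly follow from that choice. The share of all genes of the cluster that were lower was not counted. Of the 8 other leading genes, 4 were lower with an interval below 1, Igfbp5 at 0.601 (0.547 to 0.659), Col23a1 at 0.533 (0.391 to 0.714), Col5a3 at 0.663 (0.465 to 0.927) and Anxa5 at 0.687 (0.583 to 0.805). Cnmd at 1.66 (1.40 to 1.97) and Nkx2-1 at 1.15 (1.04 to 1.28) were higher, and the intervals of Sfta3-ps and Fmo1 spanned 1. The part of these in the Fgf17 and Fgf8 differences was not tested. The summed level of the 18 astroglia markers was 16474 and 19442 CPM, with all 18 found in both libraries.

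Fgf8 and Fgf17 were often found in the same cell. In WT cells of cluster 22, 130 of the 161 cells with Fgf17 also had Fgf8 (80.7%), against 64.4% of all cells there. In cKO cells of the cluster the count was 25 of 32 (78.1%), against 49.6%. In cluster 4, 53 of 75 WT cells with Fgf17 had Fgf8 (70.7%), against 23.7% of all cells there. After thinning, the WT values in cluster 22 were 57.6% against 39.9%. Over the 63 points made of each cluster with at least 30 cells in each library, Fgf8 had the highest correlation of any gene with Fgf17 (Pearson r = 0.91), among 11587 genes whose level varied. Points of 1 library share its depth and free RNA, so this is a description. Next to Fgf8 came Hapln1 (0.878), Cnmd (0.869), Col5a3 (0.864) and Glis3 (0.845), and for Fgf8, after Fgf17, Otx2os1 (0.875) and Gm29478 (0.832).

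Fgf18, the remaining ligand of the subfamily, was found at low levels in most clusters. In cluster 22 it had 78 UMIs in WT and 13 in cKO, or 25.9 and 12.8 CPM, a ratio of 0.493 (0.252 to 0.894). In the whole astroglia class it stood at 8.04 and 2.86 CPM, a ratio of 0.356 (0.247 to 0.504). Elsewhere it was found mainly in clusters with glutamatergic markers. Cluster 10, unnamed and led by Cyp26b1 and Cck, had 16.8 and 18.2 CPM, a ratio of 1.08 (0.785 to 1.49). Cluster 26, which had 11 WT and 224 cKO cells, held 24.4% of the cKO Fgf18 UMIs, and its level was 87.5 and 48.4 CPM, a ratio of 0.553 (0.313 to 1.07). Of 7 clusters with at least 30 cells in both libraries and 20 Fgf18 UMIs in 1 of them, 6 had an interval that spanned 1, and the exception was cluster 22. In cluster 5, with 15 and 6 UMIs, the ratio was 0.339 (0.108 to 0.924). The gene most like it in level was the potassium channel gene Kcnk1, at r = 0.721.

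**Figure D3:**
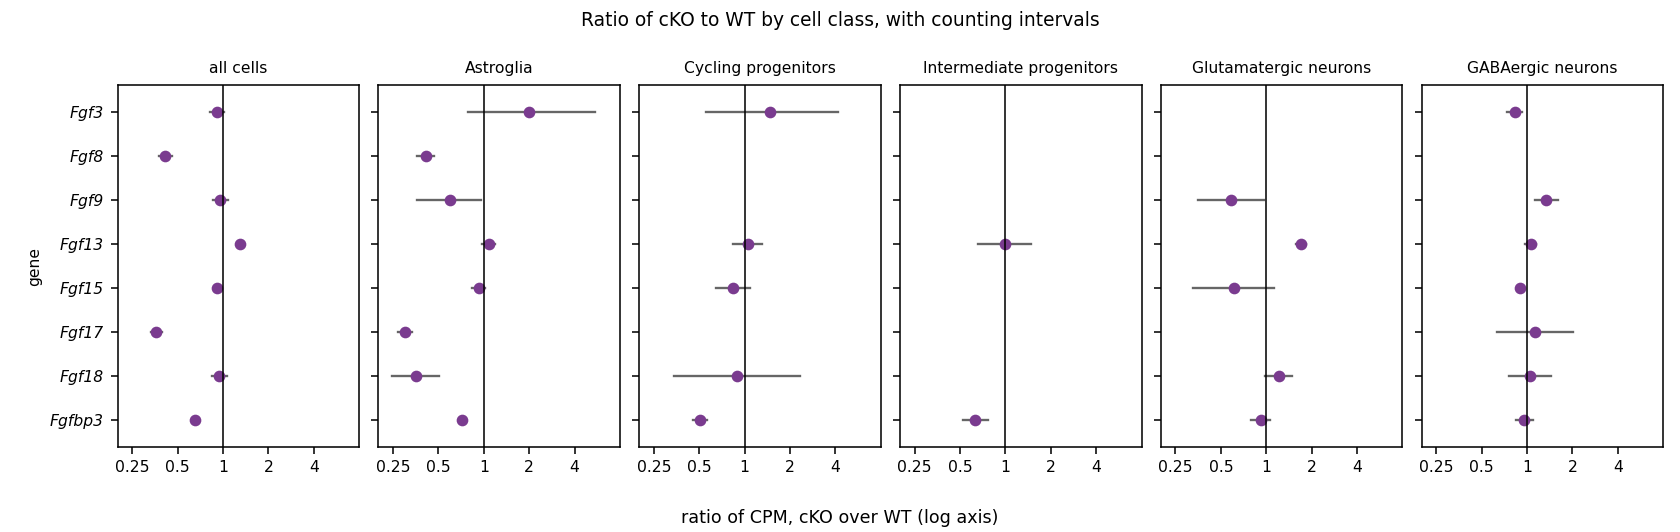
Ratio of cKO to WT CPM for each gene with at least 20 UMIs, over all cells and in 5 classes, on a log axis. Points are ratios and lines exact 95% counting intervals. In astroglia Fgf17 lies at 0.301, Fgf18 at 0.356 and Fgf8 at 0.411, whereas in GABAergic neurons no gene passes 1.5-fold.

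In the astroglia class as a whole, 3 of 8 genes were lower past 1.5-fold, Fgf8, Fgf17 and Fgf18, and 0 were higher. Of all 14158 genes tested there, 1.41% were lower and 0.353% higher. Fgf17 stood at 102 and 30.7 CPM, a ratio of 0.301 (0.271 to 0.334), and Fgf8 at 52.8 and 21.7 CPM, a ratio of 0.411 (0.361 to 0.467). The class sums again held fewer cells of cluster 22 in cKO. With the clusters of the class weighted equally, the log2 ratio was -0.86 for Fgf17, -0.41 for Fgf8 and -0.45 for Fgf18, the last 2 short of 1.5-fold.

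Fgf3 (chr7:144838083-144844436, plus strand) and Fgf15 (chr7:144896531-144900953, plus strand) are neighbouring ligand genes, 52094 bases apart. Only Fgf4 lies between them, and it had 0 UMIs in either library. Fgf15 is the mouse counterpart of human FGF19 and is known in the embryonic forebrain for favouring neuronal differentiation over proliferation. Gm26793 and Gm39119 overlap Fgf15 on the opposite strand, and how the counting treated strand is not given in the sources used here, so a share of their reads could be exchanged.

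Both genes were found in GABAergic neurons, mostly in clusters with high levels of Zic1, a gene of the septum and midline. Cluster 1, led by Trhde, Prdm12 and Pnoc and with Zic1 at 1699 and 1801 CPM, contained 53.1% of all WT Fgf3 UMIs and 39.8% of those in cKO. It also contained 32.8% and 29.7% of the Fgf15 UMIs. Its Fgf3 level was 65.3 and 58.7 CPM, a ratio of 0.898 (0.760 to 1.06), and was found in 36.7% and 28.9% of cells. The order of Fgf3 levels in WT was cluster 1, cluster 6 at 36.8 CPM, cluster 24 at 30.8 CPM, cluster 2 at 17.4 CPM and cluster 7 at 10.6 CPM. The intervals of cluster 6 (30.6 to 43.9) and cluster 24 (22.4 to 41.4) overlapped, and those of clusters 2 (13.6 to 21.9) and 7 (7.45 to 14.7) also touched. In all 5 of these clusters the interval of the Fgf3 ratio spanned 1. The Zic1 level did not mark Fgf3 in every GABAergic cluster. Cluster 24 had Zic1 at only 270 and 190 CPM, and cluster 9, with Zic1 at 813 and 969 CPM, had Fgf3 at 3.93 and 5.62 CPM.

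Fgf15 reached further than Fgf3. Its highest WT level was in cluster 18, astroglia led by Creg2, Mt3 and Hhip with Six3 at 273 CPM and Emx1 at 2.27 CPM in WT. Its level there was 276 and 234 CPM, a ratio of 0.848 (0.746 to 0.964). In the same cluster Nkx2-1 had 43.7 and 157 CPM and red-cell markers 166 and 5537 CPM, and their part in this difference was not tested. Fgf3 had few UMIs in that cluster, with a UMI in 2.06% of WT and 3.82% of cKO cells. In cluster 1 Fgf15 stood at 244 and 267 CPM, a ratio of 1.09 (1.01 to 1.19). In cluster 2, GABAergic neurons led by Aldh1a3 and Dlx6os1, it stood at 173 and 226 CPM, a ratio of 1.31 (1.18 to 1.46). The direction turned in cluster 24, GABAergic neurons led by Tac1 and Ebf1, with 97.3 and 48.0 CPM from 139 and 39 UMIs, a ratio of 0.493 (0.337 to 0.708). In cluster 24 the Six3 level was 46.2 and 246 CPM, and the part of this in the Fgf15 difference was not tested. Cluster 21 was higher in cKO, at 38.4 and 57.9 CPM, a ratio of 1.51 (1.18 to 1.93).

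Summed over GABAergic neurons, Fgf15 stood at 144 and 130 CPM, a ratio of 0.901 (0.852 to 0.954), and Fgf3 at 34.2 and 28.3 CPM, a ratio of 0.828 (0.735 to 0.932). With clusters weighted equally the log2 ratios were 0.08 for Fgf15 and -0.01 for Fgf3. Cluster 1, the main source, was 6.85% of WT and 4.98% of cKO cells. None of the 7 genes tested in this class passed 1.5-fold in either direction, beside 0.548% of 13510 genes higher and 0.126% lower.

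**Figure D4:**
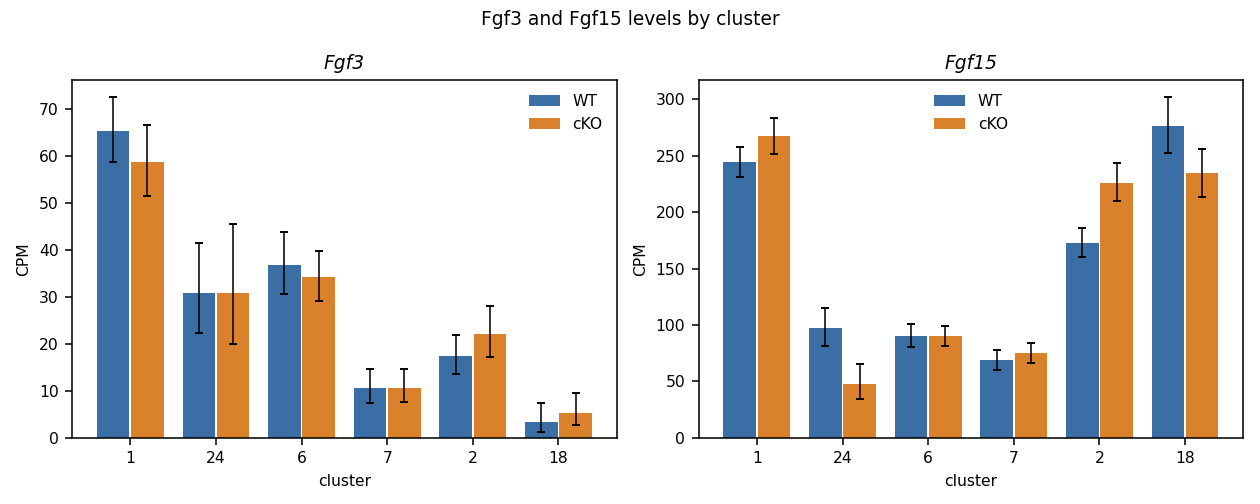
Fgf3 and Fgf15 levels in CPM with exact 95% counting intervals in clusters 1, 24, 6, 7, 2 and 18, WT in blue and cKO in orange. Fgf3 is highest in cluster 1 at 65.3 and 58.7 CPM, and Fgf15 reaches 276 and 234 CPM in cluster 18, where Fgf3 is low.

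Cells with Fgf3 mostly had Fgf15 as well. Over all WT cells, 338 of 462 cells with Fgf3 had an Fgf15 UMI (73.2%), against 19.5% of all cells. In cKO it was 289 of 419 (69.0%), against 15.5%. Within cluster 1, which holds the comparison to 1 kind of cell, 182 of 217 WT cells with Fgf3 had Fgf15 (83.9%), against 66.5% of the cluster. After thinning it was 56 of 95 (58.9%), against 44.3%. The reverse share was smaller, since 46.3% of WT Fgf15 cells in cluster 1 had an Fgf3 UMI. The levels of the neighbours correlated over the 63 points at r = 0.738. The genes most like Fgf3 were Fgd5 (0.894), Prdm12 (0.863), a transcription factor gene, and the channel gene Trpc4 (0.817). Those most like Fgf15 were the homeobox gene Nkx2-3 (0.838), the chloride channel gene Ano1 (0.81), and Gm26793 (0.804), which overlaps it.

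Fgf9 (chr14:58070547-58112720, plus strand), a ligand known from neurons and glia, was spread over several neuronal clusters. Its highest WT level was in Cajal-Retzius cells, the Reln-secreting neurons of the marginal zone, at 36.7 and 45.3 CPM, a ratio of 1.24 (0.749 to 2.03). Clusters 27, 6 and 7 followed, and their ratios lay between 1.08 and 1.14 with intervals that spanned 1. The exception was cluster 10, with 80 and 17 UMIs, or 18.2 and 3.39 CPM. Its ratio was 0.186 (0.104 to 0.318), and 19% of WT against 3.99% of cKO cells had a UMI. In this cluster other markers also differed between the libraries: GABAergic markers summed to 37.5 and 101 CPM (12 of 12 found in both), Cajal-Retzius markers to 473 and 809 CPM and red-cell markers to 159 and 1824 CPM. Their part in the Fgf9 difference was not tested. Cluster 10 had Emx1 at 70.8 and 56.9 CPM and a Tcf4 ratio of 0.698 (0.677 to 0.719). Cluster 18 was also lower, with 21 and 7 UMIs and a ratio of 0.286 (0.103 to 0.699), and cluster 9, GABAergic neurons led by Lhx8 and Lhx6, was higher, with 11 and 39 UMIs and a ratio of 2.25 (1.13 to 4.88).

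Fgf13 (chrX:59062145-59568071, minus strand) was found widely, in 32.8% of WT and 34.0% of cKO cells, and in 12.9% and 15.2% after thinning. Its levels were high in several neuronal clusters and also in astroglia cluster 18, which had 94.7 and 71.6 CPM. That ratio, 0.756 (0.602 to 0.95), was the only 1 of 25 with an interval below 1. Over the 63 points it resembled Ncam1 (0.839), the G protein gene Gnao1 (0.82) and the active zone gene Erc2 (0.817). Among clusters with at least 30 cells in both libraries, it stood highest in cluster 25, GABAergic neurons led by Sst and Npy, at 149 and 160 CPM, a ratio of 1.07 (0.838 to 1.37). In cluster 10 it stood at 109 and 118 CPM, a ratio of 1.08 (0.954 to 1.22).

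In the glutamatergic class the Fgf13 level was 67.3 and 115 CPM, a ratio of 1.71 (1.58 to 1.84). It was the 1 of 5 members tested there that was past 1.5-fold, and 1.33% of 13117 genes were higher and 1.27% lower. Different clusters made up this class in the libraries. Clusters 15 and 17 had 636 and 535 WT cells against 5 and 9 cKO cells, whereas clusters 8, 11 and 26 had 11, 7 and 11 WT cells against 775, 667 and 224 cKO cells. Fgf13 stood at 98.1 and 25 CPM in WT cells of clusters 15 and 17, and at 56.8, 178 and 180 CPM in cKO cells of clusters 8, 11 and 26. Cluster 16, the 1 glutamatergic cluster well filled in both libraries, had 37.1 and 42.7 CPM, a ratio of 1.15 (0.856 to 1.57). The class difference therefore compares cells that were not matched. With the class's clusters weighted equally its log2 ratio was 0.18, and with other cluster settings it was 0.49 to 0.52, all short of 1.5-fold. In 20 of 25 clusters with enough cells and UMIs the interval of the Fgf13 ratio spanned 1. In 4 it lay above 1, namely clusters 7, 14, 21 and 29. The largest of the 25 ratios was in Cajal-Retzius cells, cluster 29, at 2.84 (1.6 to 5.21) from 19 and 39 UMIs. These UMIs gave levels of 18.8 and 53.6 CPM, beside 19.5 and 12.4 CPM of Fgf13 in microglia. The WT side of this Fgf13 ratio was thus no higher than the microglial level, which is read as background. The 7 sodium channel genes of its partners were all testable in glutamatergic neurons, and 0 passed 1.5-fold in either direction.

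Fgfbp3 (chr19:36917550-36919615, minus strand), the secreted carrier, was mainly an astroglial gene and its ratio varied widely between clusters, from 0.351 to 5.04. The highest ratio was in cluster 31, whose markers were endothelial and mural. The genes most like Fgfbp3 in level were 9430041J12Rik (0.941), Klf15 (0.924) and Aldh1l1 (0.923), the last an astrocyte enzyme. RefSeq promoter sequences (GRCm38.p6, from 250 bases before to 50 bases after a start) covered 5 of the 8 members. That of Fgfbp3 is shown because Tcf4 belongs to the factors that bind E-boxes, with the letters CANNTG. Capitals mark the only match, CACATG, which starts 200 bases before the start site.
Fgfbp3 promoter, chr19:36919550-36919849, minus strand, 5′ to 3′: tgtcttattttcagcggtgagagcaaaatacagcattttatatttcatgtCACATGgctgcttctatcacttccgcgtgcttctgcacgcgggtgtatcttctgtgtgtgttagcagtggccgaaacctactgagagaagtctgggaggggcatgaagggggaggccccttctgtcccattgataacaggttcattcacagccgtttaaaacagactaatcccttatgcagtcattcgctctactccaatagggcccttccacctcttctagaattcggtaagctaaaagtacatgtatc
The motif reads the same on both strands. At least 1 match was present in 72.3% of 32851 promoters of 300 bases. Fgf9 also had 1 match, CAAATG, and Fgf3 and Fgf18 had 0. The 4 starts of Fgf13 had 2, 0, 2 and 0. A match is a string of letters and does not show binding.

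In 5 astroglia and progenitor clusters with WT Emx1 levels of 65.0 to 171 CPM, Fgfbp3 was lower in cKO. Cluster 14, astroglia led by Hopx and Aldoc with Emx1 at 65.0 CPM in WT, had 663 and 265 CPM, a ratio of 0.4 (0.371 to 0.430). Cluster 5, astroglia led by the cortical hem gene Wnt8b with Emx1 at 107 CPM, had 379 and 161 CPM, a ratio of 0.425 (0.389 to 0.465). Cycling clusters also had low ratios. Cluster 23 had 479 and 170 CPM, a ratio of 0.356 (0.318 to 0.398), and cluster 12, unnamed with cycling and astroglia markers, had 410 and 154 CPM, a ratio of 0.376 (0.346 to 0.408). Cluster 20, with markers of cycling and intermediate progenitors, had a ratio of 0.351 (0.240 to 0.503). Intermediate progenitors had 64.2 and 40.6 CPM, a ratio of 0.633 (0.522 to 0.767).

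In 3 clusters that express Fgf15, Fgf8 or Fgf17 it was not lower. Cluster 18 had the highest level, 1108 and 1100 CPM, a ratio of 0.993 (0.934 to 1.06), with a UMI in 93.0% and 89.9% of cells. Cluster 22 had 252 and 357 CPM, a ratio of 1.42 (1.25 to 1.61), and cluster 21 had 251 and 348 CPM, a ratio of 1.38 (1.26 to 1.52). Cluster 4, which had both Emx1 (31.9 CPM in WT) and Six3 (301 CPM), lay between, at 779 and 662 CPM with a ratio of 0.851 (0.807 to 0.896). The Emx1 level did not mark the difference in all clusters. Cluster 16, glutamatergic neurons with the highest WT Emx1 level (269 CPM), had an Fgfbp3 ratio of 1.07 (0.717 to 1.62). Clusters 0 and 10, with WT Emx1 levels of 230 and 70.8 CPM, had ratios of 0.739 (0.571 to 0.956) and 0.712 (0.550 to 0.920). Cluster 2, with Emx1 at 3.87 CPM and Six3 at 267 CPM, had a ratio of 0.707 (0.497 to 0.995). Its Fgfbp3 levels were 24.5 and 17.3 CPM, where free RNA contributes. The oligodendrocyte progenitors of cluster 32, with Emx1 at 6.58 CPM, had a ratio of 0.408 (0.176 to 0.870) from only 27 and 10 UMIs. In cluster 22 Fgf17, Fgf8 and Fgf18 were lower and Fgfbp3 higher in cKO.

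At equal depth per cell the counts of Fgfbp3 differed likewise. After thinning to 3000 UMIs, the median Fgfbp3 count in a cell of cluster 14 was 2 UMIs in WT and 0 UMIs in cKO, with means of 2.11 and 0.84. In cluster 18 the medians were 3 and 2 UMIs and the means 3.30 and 3.10. With WT levels and cKO shares of UMIs the sum over all cells would be 169 CPM, close to the 174 CPM of WT. With WT shares and cKO levels it would be 132 CPM, against 113 CPM in cKO.

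**Figure D5:**
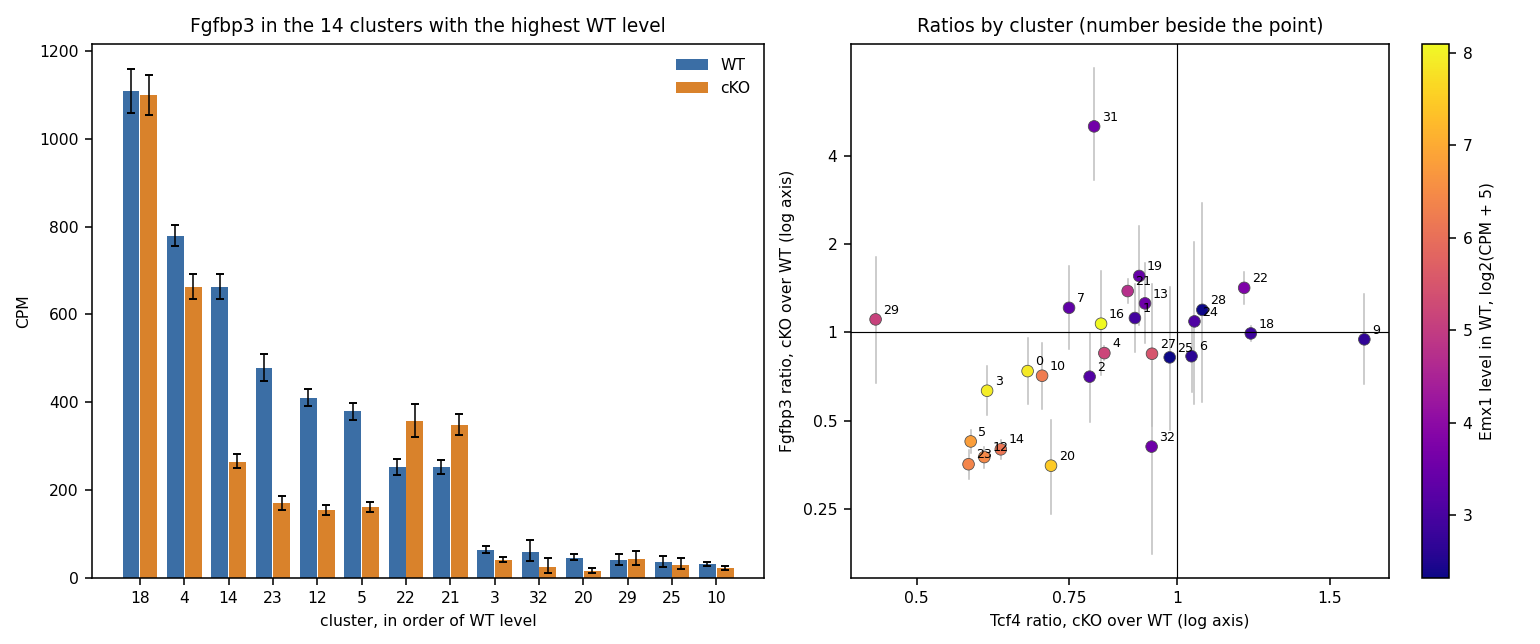
Fgfbp3 levels in CPM with exact 95% counting intervals in the 14 clusters with the highest WT level, WT in blue and cKO in orange, beside a plot of the Fgfbp3 ratio against the Tcf4 ratio in 27 clusters, both on log axes. Colour gives the Emx1 level in WT as log2(CPM + 5), and grey lines are counting intervals. Clusters 5, 12, 14 and 23 lie together at Fgfbp3 ratios of 0.356 to 0.425 and Tcf4 ratios of 0.574 to 0.625.

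The Fgfbp3 ratios were set beside those of Tcf4 itself. Tcf4 UMIs over all cells stood at 1499 and 1139 CPM, a ratio of 0.760 (0.754 to 0.766). The libraries tag the 3' end of transcripts, and which exon was floxed is not given in the sources used here, so the Tcf4 level does not check the genotype. Of 27 clusters with at least 20 Fgfbp3 UMIs and 30 cells in both libraries, 18 had a Tcf4 interval below 1. Among these 18, Fgfbp3 had an interval below 1 in 10, above 1 in 3 (clusters 19, 21 and 31) and spanning 1 in 5. The cKO value of cluster 31 rested largely on 1 cell, as described below. Among the 3 clusters with a Tcf4 interval above 1, Fgfbp3 was above 1 in 1 and spanned 1 in 2. Over the 27 clusters the log2 ratios of the genes had a Pearson r of 0.377 and a Spearman rho of 0.470, as a description of clusters that come from the same 2 libraries. The relation was not uniform: Cajal-Retzius cells had the lowest Tcf4 ratio in this set, 0.448 (0.371 to 0.539), and an Fgfbp3 ratio of 1.11 (0.674 to 1.81).

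The highest Fgfbp3 ratio, 5.04 (3.30 to 7.97), was in cluster 31, whose markers were split between endothelial and mural cells. This value rested on 27 UMIs in 56 WT cells and 120 UMIs in 38 cKO cells. A UMI was found in 35.7% of WT and 42.1% of cKO cells, the median depths were 19942 and 33967 UMIs, and after thinning 3 and 6 cells were positive. A single cKO cell held 63 of the 120 UMIs. In the cycling class Fgfbp3 was the 1 of 5 members lower past 1.5-fold, at 182 and 92.2 CPM with a ratio of 0.506 (0.455 to 0.561), beside 0.375% of 11742 genes lower and 0.502% higher. The class holds cluster 23, described above, and cluster 13, with 329 WT and 340 cKO cells, where the Fgfbp3 level was 21.5 and 27 CPM, a ratio of 1.26 (0.918 to 1.72). In intermediate progenitors it was the 1 of 2, beside 1.42% of 10924 genes lower and 0.815% higher. In glutamatergic and GABAergic neurons its ratios were 0.917 (0.796 to 1.06) and 0.960 (0.84 to 1.10), at levels of 22.7 to 25.3 CPM, where free RNA contributes.

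The other genes of the FGF pathway were counted from lists of ligands, receptors, feedback and target genes, heparan sulfate genes and sodium channel genes. In astroglia, 3 of 13 feedback and target genes were lower past 1.5-fold and 0 higher, beside 1.41% of 14158 genes lower and 0.353% higher. Of the 13, 10 had a log2 ratio below 0, with a median of -0.21 beside -0.03 over all genes. Spry1, which encodes a Sprouty inhibitor of receptor signalling, stood at 74.9 and 30.3 CPM, a ratio of 0.404 (0.362 to 0.45). Its relative Spry2 stood at 63.3 and 37.9 CPM, a ratio of 0.599 (0.540 to 0.664), and Il17rd, a membrane inhibitor also called Sef, at 98.8 and 59.9 CPM, a ratio of 0.606 (0.559 to 0.658). These sums held fewer cells of cluster 22 in cKO. With the 5 clusters of the class weighted equally, a setting chosen after seeing the data, the log2 ratios were -0.58 for Spry1, -0.40 for Spry2 and -0.25 for Il17rd, all short of 1.5-fold.

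These 3 genes were followed by cluster because they passed 1.5-fold in the astroglia class. Lower ratios in its clusters partly follow from that choice. The other feedback and target genes were not compared by cluster. Of 6 astroglia and progenitor clusters (4, 5, 14, 18, 21 and 22), all 3 genes were highest in cluster 22, where Fgf17 was highest. In cluster 22 Spry1 stood at 252 and 158 CPM, a ratio of 0.625 (0.524 to 0.742), Spry2 had a ratio of 0.679 (0.525 to 0.868) and Il17rd 0.712 (0.596 to 0.848). In cluster 4, where Fgf17 and Fgf8 were not lower, Spry1 had a ratio of 0.682 (0.554 to 0.836), Spry2 0.725 (0.601 to 0.873) and Il17rd 0.902 (0.794 to 1.02). In cluster 21 the ratios were 0.614, 0.729 and 0.630, with all intervals below 1. In cluster 14 Spry1 had a ratio of 0.5 (0.315 to 0.786), and the intervals of the other 2 genes spanned 1. All 3 genes were also lower in cluster 5, where Fgf8 and Fgf17 were low, with ratios of 0.635 (0.490 to 0.821), 0.598 (0.472 to 0.756) and 0.623 (0.480 to 0.807). In cluster 18 they were not lower: Spry2 had a ratio of 1.06 (0.761 to 1.47), Il17rd 1.21 (0.946 to 1.55) and Spry1, with 5 and 18 UMIs, 3.09 (1.11 to 10.7).

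Among receptors, Fgfr1 was the 1 of 6 testable genes past 1.5-fold over all cells, at 127 and 79.4 CPM with a ratio of 0.625 (0.607 to 0.643). Of all 17529 genes tested over all cells, 0.394% were lower and 0.262% higher. In glutamatergic neurons, a class of unmatched cells, it had 235 and 98.3 CPM, a ratio of 0.419 (0.395 to 0.443). Its ratio was closer to 1 elsewhere, at 0.870 in astroglia, 0.983 in cycling progenitors, 0.870 in intermediate progenitors and 0.915 in GABAergic neurons. None of 4 testable receptors passed 1.5-fold in astroglia, beside 1.41% of 14158 genes lower and 0.353% higher. In intermediate progenitors Fgfr2 had 11 and 35 UMIs, a ratio of 3.09 (1.53 to 6.74), and Gpc3, a heparan sulfate carrier, 7 and 22 UMIs, a ratio of 3.05 (1.26 to 8.45), while Spry2 was lower at 0.521 (0.320 to 0.833). In that class 1.42% of 10924 genes were lower and 0.815% higher. The Fgfr2 and Gpc3 calls are lost when at least 50 UMIs are required. In cycling progenitors only Sdc2, another carrier, passed 1.5-fold, at 22 and 12.5 CPM with a ratio of 0.569 (0.421 to 0.763). Of 11742 genes tested there, 0.375% were lower and 0.502% higher. In glutamatergic neurons, again in unmatched cells, 5 of 13 feedback and target genes were lower, beside 1.27% of 13117 genes lower and 1.33% higher. They were Spry1, Spry2, Spry4, Spred3 and Etv5, with ratios from 0.178 to 0.543. Etv1 was higher at 3.92 (3.30 to 4.69). There Gpc4 and Gpc6 were higher, at 3.05 and 3.51, and the sulfotransferase gene Hs6st2 lower at 0.369 (0.332 to 0.409), in the unmatched cells of that class. In GABAergic neurons 0 of the 42 testable genes on these 5 lists passed 1.5-fold, beside only 0.548% of 13510 genes higher and 0.126% lower. Of the 15 FGF ligands that were not members, 10 were testable over all cells and 0 passed 1.5-fold.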

How the data were processed

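The data are gene by barcode tables of UMI counts from 2 droplet libraries, WT and cKO, of 3' single-cell RNA. The authors deposited these counts as raw, unnormalised values for every barcode. Cell Ranger 2.1.1 and the mm10 genome are named in the submitters' processing notes, and the table header names version 7.1.0. How strand was treated is not given in the sources used here.

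Barcodes were kept as cells above a minimum of 3348 UMIs in WT and 3341 in cKO, a set fraction of the top totals, if 500 or more genes were found and mitochondrial UMIs were 10% or less. From 8964 and 10668 such cells, Scrublet calls removed 330 and 526 doublets. Clusters came from 2000 variable genes, 30 principal components, 15 neighbours and Leiden resolution 1 (scanpy 1.11.5). The variable genes were chosen without the 8 genes described, Tcf4, mitochondrial, ribosomal, haemoglobin and Y-linked genes, Xist and Tsix. Classes were named from marker lists.

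UMIs were summed by library and class or cluster. Intervals are exact Poisson for CPM, Clopper-Pearson for shares and conditional binomial for ratios, at 95%. A pseudocount of 5 CPM was used for the 1.5-fold limit. The ratio script was tested on simulated counts. Named genes were the 8 genes, the 5 genes with the highest correlation to each, and list genes past 1.5-fold. Cluster-leading genes, region genes and the feedback genes by cluster were named after their values were seen. The members and lists were chosen with earlier results of these data known.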

Additional observations from a re-analysis of the deposited data

Results flagged for a closer look

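The Fgf9 ratio of cKO to WT lay on opposite sides of 1 in different classes, with each interval clear of 1. It was 1.34 (1.12 to 1.59) in GABAergic neurons, from 224 and 311 UMIs. It was 0.593 (0.358 to 0.961) in astroglia, from 52 and 27 UMIs, and 0.587 (0.353 to 0.965) in glutamatergic neurons, from 42 and 29 UMIs. The glutamatergic class holds different clusters in the libraries (15 and 17 in WT, and 8, 11 and 26 in cKO), and in cluster 16, filled in both, the ratio was 0.515 (0.257 to 1.03). The GABAergic class also held its clusters in unlike shares. Cluster 6, its largest Fgf9 source, was 3.90% of WT and 5.07% of cKO cells, with a ratio of 1.13 (0.873 to 1.46). Cluster 1 had 1.26 (0.891 to 1.77), cluster 9 had 2.25 (1.13 to 4.88) and cluster 2 had 0.396 (0.114 to 1.12). Cluster 28, with 32 WT and 161 cKO cells, held 34 of the 311 cKO UMIs. The differences between classes were not tested, because each genotype has 1 library.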

How the results depend on the processing

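No paired analysis was possible because each genotype has 1 library, and leaving out a library leaves no comparison. Over all cells, with a pseudocount of 1 CPM the log2 ratio was -1.15 for Fgf8 and -1.37 for Fgf17. With 20 CPM it was -0.44 for Fgf8, 0.27 for Fgf13, -0.63 for Fgf17 and -0.55 for Fgfbp3, so Fgf8 and Fgfbp3 fell short of 1.5-fold. With cells thinned to 3000 UMIs it was -1.03 for Fgf8, -0.22 for Fgf15, -1.28 for Fgf17, 0.14 for Fgf18 and -0.67 for Fgfbp3. With shared clusters weighted equally it was -0.34 for Fgf8, 0.12 for Fgf13, 0.035 for Fgf15, -0.57 for Fgf17 and -0.36 for Fgfbp3. With the UMI minimum doubled it was 0.45 for Fgf13 and -0.19 for Fgf15, and with doublets kept -1.22 for Fgf17. The difference in the share of positive cells, in percentage points, reversed for Fgf18 after thinning, from -0.94 to 0.35. After thinning it was -0.49 for Fgf3, -2.32 for Fgf8, -2.14 for Fgf15, -1.7 for Fgf17 and -6.56 for Fgfbp3. The cause of these shifts was not tested. A limit of 5% mitochondrial UMIs, subtraction of free RNA and scaling by the median ratio left all 8 all-cell log2 ratios within their counting intervals. Within classes and lists, 28 values moved and 338 did not. The only list count that moved was the number of pathway genes higher in intermediate progenitors, which was 0 with at least 50 UMIs. Genes with under about 20 UMIs in a cluster were too shallow to compare.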

Other observations

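Over the 63 points, the genes most like Fgf9 in level were 1700023F06Rik (0.866), Rit2 (0.851) and Nucb2 (0.849). As with the other correlations, points of 1 library share its depth and free RNA.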
